A study of Mus musculus with 240 samples.

Results

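The genes described are 31 genes of cholesterol and fatty acid synthesis, sterol sensing and sterol transport, found by symbol in the gene table and read in oligodendrocyte precursor cells (OPCs) and gliomas of the mouse brain. All 31 were among the 34623 genes of the table, and all 31 passed the filter on low counts that left 16349 genes for the bulk tests. They fall into 6 groups by role. There are 7 genes of the mevalonate arm (Acat2, Hmgcs1, Mvk, Pmvk, Mvd, Idi1, Fdps) and 3 that make squalene and lanosterol (Fdft1, Sqle, Lss). A further 8 take lanosterol to cholesterol (Cyp51, Tm7sf2, Msmo1, Nsdhl, Hsd17b7, Ebp, Sc5d, Dhcr7). The last groups are 4 genes of sterol sensing (Srebf1, Srebf2, Scap, Insig1), 3 of sterol transport (Stard4, Abca1, Abcg1) and 6 of fatty acid synthesis (Fasn, Acaca, Scd1, Scd2, Elovl1, Elovl6).

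Cells build cholesterol from acetyl units: HMG-CoA synthase and the enzymes after it make isoprene units, squalene synthase joins them, squalene epoxidase and lanosterol synthase close the rings, and a last series of enzymes trims lanosterol to cholesterol. SREBP-2 (Srebf2) mainly drives the sterol genes and SREBP-1 (Srebf1) mainly the fatty acid genes; SCAP carries both to the Golgi when sterol is low, and INSIG-1 holds them back when it is high. Excess cholesterol leaves cells through ABCA1 and ABCG1, which LXR receptors induce. The brain makes its own cholesterol behind the blood-brain barrier, and much of it goes into the myelin that OPCs lay down after they become oligodendrocytes.

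The study followed gliomas from the stage before tumours. Cells positive for the red reporter tdTomato were cut from brain sections by laser capture, at 12, 90 or 150 days after tamoxifen (dpi). The bulk libraries came from 37 mice, 19 males and 18 females: 5 wild-type (WT) and 7 Trp53-/- Nf1-/- (CKO) mice at 12 dpi, 5 WT and 7 CKO mice at 90 dpi, and 6 WT mice and 7 mice with Trp53-/- Nf1-/- brain tumours at 150 dpi. A further 192 libraries of about 10 cells came from CKO mice: 112 were independent 10-cell captures, and 80 were pool-and-split controls, in which one larger capture is divided into equal parts, with 56 and 40 of them at each of 12 and 90 dpi. The labels used here give no Cre driver, strain or age, and no CKO tissue without tumour at 150 dpi was part of the comparison, so genotype, tumour and time cannot be told apart there.

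Total counts per animal ran from 93694 (WT_21167 at 90 dpi) to 31338200, and levels are counts per 1000000 (CPM) of the TMM-scaled total. Nf1 averaged 191 CPM in CKO mice and 312 in WT mice at 12 dpi, without overlap, and 214 in tumours and 301 in WT mice at 150 dpi. At 90 dpi the animal labelled CKO_20647 read 302 CPM of Nf1, inside the WT range of 274 to 343, and it stands apart in several values below. Trp53 was not called between genotypes at either early time (log2 fold change -0.06 and 0.07), but counts per gene do not show which exons were read, and the deleted parts are not given in the labels used here. Summed neuron markers reached 6692 to 16013 CPM in every group without tumours, above the summed OPC markers there (2793 to 5572), while in tumours neuron markers summed to 264 to 1498 and OPC markers to 5387 to 15323. Between tumours and WT mice at 150 dpi, oligodendrocyte markers summed to 399 to 1666 against 1631 to 3242, astrocyte markers to 1265 to 4084 against 3343 to 4686, microglia markers to 496 to 1550 against 141 to 259, endothelial markers to 104 to 287 against 221 to 336, and proliferation genes to 442 to 2312 against 13.0 to 43.0 CPM. No marker gene was at 0 in every animal of any group, and the part these shifts have in the tumour differences below was not tested. In such bulk samples fewer cells of a type and less RNA per cell cannot be told apart.

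Promoter sequences were at hand for 24 of the 31 genes, as RefSeq windows of GRCm38.p6 that run from 250 bases before to 50 bases after the transcript start. Shown are the promoters of Hmgcs1, the one window among these genes with the sterol response element searched for, of Fasn, whose transcript rose in tumours, and of Tm7sf2, whose transcript fell. The windows are chr13:119690101-119690400 on the plus strand for Hmgcs1, chr11:120824498-120824797 on the minus strand for Fasn and chr19:6067801-6068100 on the minus strand for Tm7sf2, each written 5′ to 3′ with matches in capitals.
Hmgcs1: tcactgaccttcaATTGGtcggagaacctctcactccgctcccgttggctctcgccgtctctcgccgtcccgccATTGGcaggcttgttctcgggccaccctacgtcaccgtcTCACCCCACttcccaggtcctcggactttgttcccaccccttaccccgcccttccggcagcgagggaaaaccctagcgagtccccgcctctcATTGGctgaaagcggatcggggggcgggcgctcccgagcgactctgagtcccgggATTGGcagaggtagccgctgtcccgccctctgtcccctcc
Fasn: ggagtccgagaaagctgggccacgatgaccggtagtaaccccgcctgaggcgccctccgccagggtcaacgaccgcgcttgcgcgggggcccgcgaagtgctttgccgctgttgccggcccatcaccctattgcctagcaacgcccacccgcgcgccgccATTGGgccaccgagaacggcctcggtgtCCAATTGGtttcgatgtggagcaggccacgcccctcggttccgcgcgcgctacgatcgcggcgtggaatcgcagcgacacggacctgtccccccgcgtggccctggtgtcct
Tm7sf2: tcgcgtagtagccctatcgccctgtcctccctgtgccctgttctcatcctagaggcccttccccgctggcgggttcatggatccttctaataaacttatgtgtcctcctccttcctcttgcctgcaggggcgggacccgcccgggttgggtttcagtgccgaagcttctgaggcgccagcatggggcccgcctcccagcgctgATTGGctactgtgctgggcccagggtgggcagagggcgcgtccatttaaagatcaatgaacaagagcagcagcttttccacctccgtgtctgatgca

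The capitals mark the sterol response element TCACNCCAC and the NF-Y motif CCAAT, both searched on either strand. The element lies 137 bases before the Hmgcs1 start, and Hmgcs1 also holds 4 NF-Y matches, all on the other strand and so printed as ATTGG. Fasn holds 3 NF-Y matches, of which a pair overlap in one palindrome, and Tm7sf2 holds 1. Over all 32851 promoter windows, 1.24% held TCACNCCAC and 37.4% held CCAAT. The 24 genes with a promoter had 31 windows, of which 1 held the former and 20 (64.5%), in 19 genes, the latter. The E-box CACGTG was in 7.15% of all windows and in 7 of the 31 windows (22.6%), which belong to 6 genes. Overlapping windows of Scap hold the same match. A match is a stretch of letters and not a measured site.

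Per kilobase of annotated exon, Scd2, the stearoyl-CoA desaturase of the brain, stood far above the other 30 genes. Its mean in WT mice at 150 dpi was 299 CPM per kb. Hmgcs1, which makes HMG-CoA, came next at 25.8, followed by Scd1 at 23.0, Abca1 at 21.5 and Insig1 at 21.3 CPM per kb. At the other end were Mvk, the mevalonate kinase, at 1.93, Tm7sf2 at 1.46 and Acat2 at 1.25 CPM per kb. In tumours Scd2 still led, at 196 CPM per kb, but Hmgcs1 was in place 8 of 31, at 19.9, behind Abca1 (36.5), Scd1 (25.9), Fasn (24.5), Insig1 (23.6), Srebf1 (22.3) and Dhcr7 (21.2, a mean that 1 tumour sets). Hmgcs1 was in place 2 in both genotypes at 12 dpi and in CKO mice at 90 dpi as well. These are orders of group means. Below Scd2 the neighbouring values lie close, and their order was not tested. The divisor was the annotated exon length of each gene, such as 4403 bases for Tm7sf2 and 17074 for Acaca, and not the length of one measured transcript. Whether counts scale with that length in these libraries was not tested.

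Before tumours, none of the 31 genes passed the test between genotypes. In edgeR's quasi-likelihood test, with p-values adjusted over all 16349 genes and a gene called at an adjusted p under 0.05, CKO against WT at 12 dpi called 0 of the 31, beside 0.0183% of all genes. At an unadjusted p under 0.05 there was 1, Fasn, the fatty acid synthase, with a mean of 232 CPM in CKO and 164 in WT mice (log2 fold change 0.46, SE 0.22, edgeR adjusted p = 0.9998). At 90 dpi the same comparison called 0 of the 31, beside 0.0489% of all genes, and 0 reached an unadjusted p under 0.05. DESeq2 also called 0 of the 31 at both times. The 95% intervals of the 31 log2 fold changes ran from -1.22 to 1.65 at 12 dpi and from -1.0 to 1.94 at 90 dpi. The outer ends belong to the least precise genes, such as Acat2 (-0.34 to 1.94 at 90 dpi), whereas Hmgcs1 ran from -0.33 to 0.39. Between 12 and 90 dpi the genotype effect was called as changed for 0 of the 31, with 0 at an unadjusted p under 0.05 and 0 by DESeq2, beside 0% of all genes. These p-values measure the spread between these animals.

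Time alone gave no called gene among the 31 either. From 12 to 90 dpi in CKO mice edgeR called 0 (0% of all genes) and DESeq2 0, and 3 genes reached an unadjusted p under 0.05: Lss, the lanosterol synthase (log2 fold change -0.42), Hmgcs1 (-0.36) and Nsdhl, a sterol dehydrogenase (-0.42). Of the 31 values 27 were negative, with a median of -0.17 against 0.02 over all genes. From 12 to 90 dpi in WT mice edgeR called 0 (0.00612% of all genes) and DESeq2 0, with Lss again the 1 gene at an unadjusted p under 0.05 (-0.40), 24 negative values and a median of -0.13. Both sets of values point the same way in different animals, but no gene passed the test. From 90 to 150 dpi in WT mice edgeR called 0 of the 31 (0.0183% of all genes) and DESeq2 0, and 5 reached an unadjusted p under 0.05. Sqle, the squalene epoxidase, was among them, at 63.7 to 123 CPM in the 5 WT mice at 90 dpi and 31.0 to 58.6 in the 6 at 150 dpi, without overlap (log2 fold change -0.75, edgeR adjusted p = 0.517). The other 4 were Cyp51 (-0.69), Fdps (-0.55), Abca1 (0.48) and Elovl6 (-0.35).

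In tumours Fasn, Acaca, Elovl1, Elovl6, Srebf1, Abca1 and Dhcr7 were higher than in either comparison group, Stard4, Tm7sf2 and Scd2 were lower, and most of the cholesterol enzymes did not pass the test. Against CKO mice the calls of Dhcr7 (0.55 without Tumor_21354) and Fasn (0.35 to 0.49 without any of 5 animals) were lost when single animals were left out, as given below. Against WT mice at 150 dpi, 13 of the 31 genes were called (46.2% of all genes): 10 higher (24.3% of all genes) and 3 lower (21.9%). Their median log2 fold change was 0.01, against 0.06 over all genes. Against CKO mice at 90 dpi, 14 of the 31 were called (49.1% of all genes): 7 higher (26.4%) and 7 lower (22.6%), with a median of 0.09 against 0.12. With DESeq2 or its size factors the latter were 9 higher and 6 lower, with a median of 0.25 against 0.29 over all genes. At an unadjusted p under 0.05 there were 15 and 16. The counts lie near the share of all genes called, so they say little of the genes as one list. The 18 cholesterol enzymes summed to 536 to 1078 CPM in tumours, 499.8 to 699 in WT mice at 150 dpi and 588 to 926 in CKO mice at 90 dpi. The 1078 is Tumor_21354, where Dhcr7 alone read 598, and the next tumour summed to 729. The tumours share the same 7 animals in both comparisons, so values for each are given side by side.

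**Figure D1:**
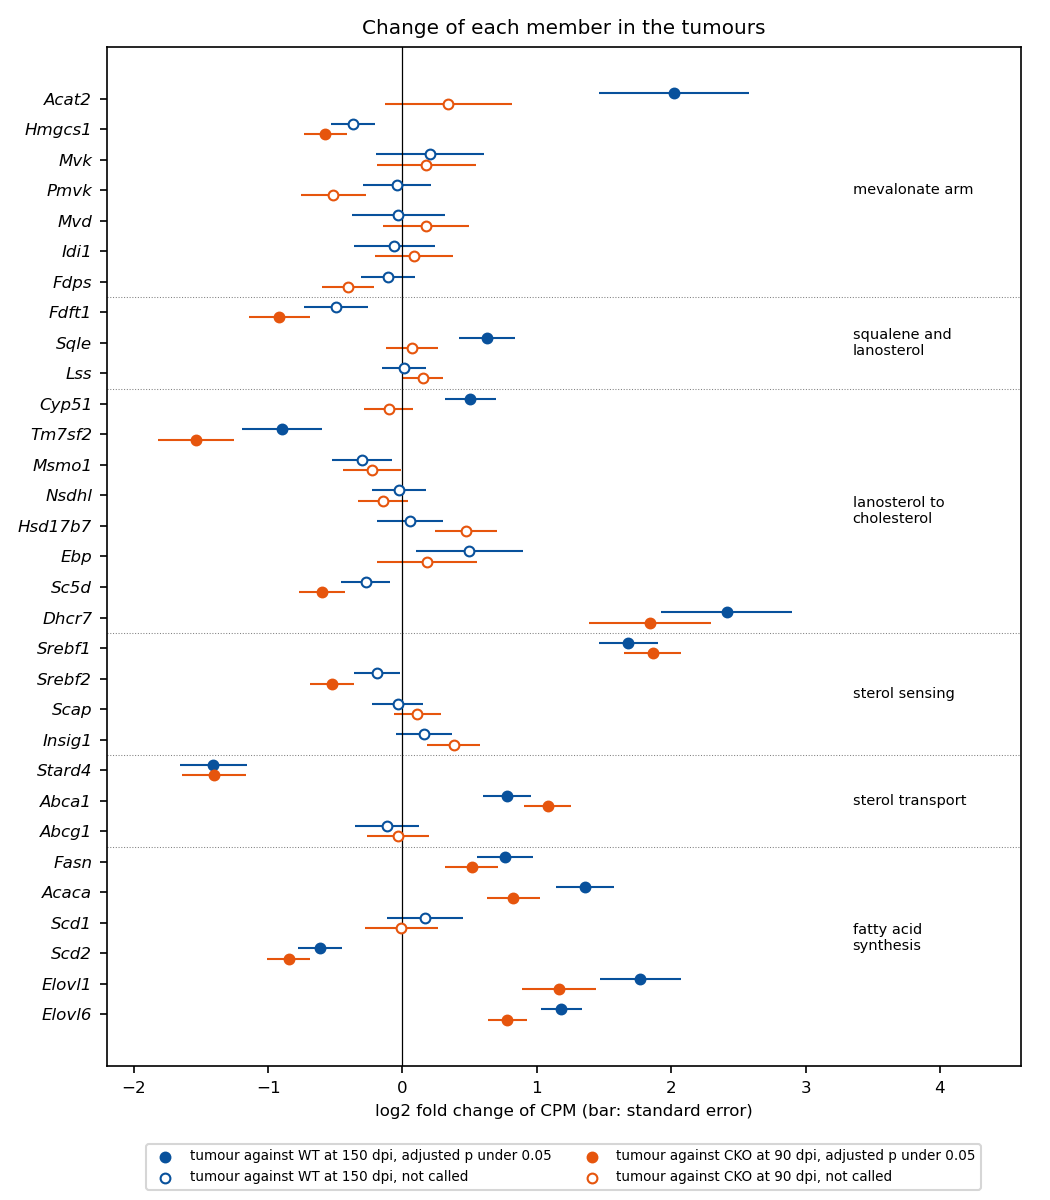
Log2 fold change of CPM for each of the 31 genes, with its standard error as a bar, in tumours against WT mice at 150 dpi (blue) and against CKO mice at 90 dpi (orange); filled points have an adjusted p under 0.05. The filled points of the fatty acid group lie on the positive side except for Scd2, and the mevalonate arm holds 1 filled point in each colour.

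In the mevalonate arm 1 of 7 genes was called against WT mice, Acat2, higher, and 1 of 7 against CKO mice, Hmgcs1, lower. Acat2, which joins acetyl-CoA units into acetoacetyl-CoA, read 2.42 to 25.7 CPM in tumours (median 10.7), 0 to 8.35 in WT mice at 150 dpi with 2 of 6 animals at 0, and 6.80 to 15.7 in CKO mice at 90 dpi (median 8.11). Of the 7 tumours 5 lay above all 6 WT mice, and the range of the CKO mice lay inside that of the tumours. The log2 fold change was 2.02 (SE 0.55, edgeR adjusted p = 0.00293) against WT and 0.34 (SE 0.47, adjusted p = 0.576) against CKO mice. Acat2 shares 97.7% of 1477 bases with its neighbour copy Acat3, so that the split of reads between them is uncertain. Hmgcs1 read 52.1 to 134 CPM in tumours (median 86.7), 99.2 to 146 in WT mice (median 111) and 110 to 173 in CKO mice (median 127), with 5 of 7 tumours below every CKO mouse. Its log2 fold change was -0.57 (SE 0.16, edgeR adjusted p = 0.00301) against CKO mice and -0.37 (SE 0.17, adjusted p = 0.0674) against WT mice. The latter passed without Tumor_16840 (-0.47, adjusted p = 0.015) or Tumor_21256 (-0.42, adjusted p = 0.0403). Pmvk and Fdps stood at -0.51 (adjusted p = 0.0748) and -0.41 (adjusted p = 0.0764) against CKO mice; Pmvk passed without Tumor_21354 (-0.67) or WT_21592 (-0.53), and Fdps without Tumor_21349 (-0.49) or Tumor_21354 (-0.48). Mvk, Mvd and Idi1 were not called in either comparison.

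The 3 genes that make squalene and lanosterol went different ways. Sqle, which adds oxygen to squalene, read 45.6 to 107 CPM in tumours (median 67.2), 31.0 to 58.6 in WT mice at 150 dpi (median 49.5) and 49.9 to 121 in CKO mice (median 64.8). All tumours but Tumor_21256 lay above every WT mouse of that time, whereas the tumours and the CKO mice overlapped broadly. The log2 fold change was 0.63 (SE 0.21, edgeR adjusted p = 0.0118) against WT mice and 0.07 (SE 0.19, adjusted p = 0.796) against CKO mice. Fdft1, the squalene synthase, read 14.4 to 39.8 CPM in tumours (median 23.4), 25.5 to 56.3 in WT mice (median 33.9) and 29.2 to 105 in CKO mice (median 43.2). With 4 of 7 tumours below every mouse of either group, it fell by 0.92 on the log2 scale against CKO mice (SE 0.22, edgeR adjusted p = 0.000885), and stood at -0.49 (SE 0.24, adjusted p = 0.0847) against WT mice. The latter passed without CKO_20647 (-0.52, adjusted p = 0.0296) or Tumor_16713 (-0.62, adjusted p = 0.0295). Its exons overlap those of Ctsb, a lysosomal protease, over 774 bases on the other strand, and Ctsb averaged 409 CPM in tumours and 278 in WT mice. Lss read 25.0 to 38.5 CPM in tumours, and its log2 fold change was 0.01 (SE 0.16) against WT mice.

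Among the 8 enzymes from lanosterol to cholesterol, 2 rose and 1 fell against WT mice, and 1 rose and 2 fell against CKO mice. Tm7sf2, a sterol reductase that is also an inner nuclear membrane protein, was at a low level and fell in both comparisons. It read 1.21 to 6.07 CPM in tumours (median 3.29), 4.01 to 9.68 in WT mice (median 6.07) and 6.62 to 14.7 in CKO mice (median 9.32). Every tumour lay below every CKO mouse, and 5 of 7 lay below every WT mouse. The log2 fold change was -1.54 (SE 0.28, edgeR adjusted p = 2.6e-05) against CKO and -0.90 (SE 0.30, adjusted p = 0.0126) against WT mice. It overlaps Vps51 on the same strand over 532 bases, and Vps51 averaged 14.3 CPM in tumours, 25.5 in WT and 24.5 in CKO mice. Cyp51, the lanosterol demethylase, read 56.2 to 106 CPM in tumours (median 73.3), 35.1 to 68.0 in WT mice (median 53.7) and 48.8 to 101 in CKO mice (median 81.3). Its log2 fold change against WT mice was 0.51 (SE 0.19, edgeR adjusted p = 0.0295), and against CKO mice -0.10 (SE 0.18). The call against WT mice was lost without Tumor_16839 (0.42, adjusted p = 0.0748) or WT_22062 (0.41, adjusted p = 0.0972). Sc5d, the sterol desaturase near the end of the pathway, had one of the narrowest ranges in tumours, 25.8 to 38.0 CPM (median 34.8), with 6 of 7 tumours below all CKO mice (37.8 to 70.0, median 48.2). It fell by 0.60 on the log2 scale against CKO mice (SE 0.17, edgeR adjusted p = 0.00413) and was not called against WT mice (-0.27). Hsd17b7 stood at 0.47 (SE 0.23, adjusted p = 0.0923) against CKO mice and passed without Tumor_16844 or Tumor_21354 (both 0.59), with DESeq2 (0.64, adjusted p = 0.0157), with its size factors in edgeR (0.64, adjusted p = 0.0207) and in 2 more settings.

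Dhcr7, the enzyme of the last step to cholesterol, differed most from tumour to tumour. The 7 tumours read 23.2, 31.2, 34.1, 49.6, 57.5, 68.1 and 598 CPM, the last being Tumor_21354. WT mice at 150 dpi read 17.0 to 30.7 (median 19.8) and CKO mice at 90 dpi 17.9 to 56.7 (median 28.3). Of the other 6 tumours 5 lay above every WT mouse, 3 of them inside the range of the CKO mice, and Tumor_21354 stood alone. Both libraries of that animal were high, at 725 and 703 CPM of the unscaled total, where the libraries of the other tumours read 20.0 to 83.1. Against WT mice the log2 fold change was 2.41 (SE 0.49, edgeR adjusted p = 0.000104), and without Tumor_21354 it was 1.08 (adjusted p = 0.000569). Against CKO mice it was 1.84 (SE 0.45, edgeR adjusted p = 0.000948), and without that tumour the call was lost (0.55, adjusted p = 0.051).

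The genes beside Dhcr7 on chromosome 7 (the gene itself is chr7:143823145-143848410 on GRCm38) were high in the same tumour; they were picked after their values were seen. Of 21 neighbours with a mean of at least 5 CPM over all animals, 8 were higher in Tumor_21354 than in all 6 other tumours: Mrgpre, Shank2, Cttn, Ppfia1, Fadd, Ano1, Oraov1 and, further off, Ctsd. With Dhcr7 itself, 7 genes were higher there than in every other animal, the exceptions being Shank2 and Ano1. The mean used to pick neighbours includes Tumor_21354. No share over all genes stands beside these counts, so the counts alone do not show an excess. Cttn, which encodes cortactin, read 918 CPM against a median of 56.8 in the other tumours, Ppfia1, a liprin, 1349 against 98.2, and Fadd, an adaptor of death receptors, 241 against 17.5. Ccnd1, the cyclin D1 gene, read 2002 against 561, but another tumour was higher, at 2418. The unbroken run of neighbours above all other tumours went from Mrgpre, 44.8 kb before Dhcr7, to Oraov1, 1092 kb after it. Further out before the gene, Osbpl5, Nap1l4 and Cars were at 0.923, 0.845 and 0.788 of the median of the other tumours. The median log2 ratio over 899 genes of chromosome 7 was -0.02. DNA copy number was not measured. That tumour also had the highest microglia marker sum, 1550 CPM, and the part of either in the Dhcr7 value was not tested.

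Idi1, the isomerase of the isoprene units, was high together with some of its neighbours in another tumour, again looked at after its values were seen. It read 176 CPM in Tumor_16839 against a median of 38.8 in the other 6, and 26.6 to 88.2 in those. Some neighbours on chromosome 13 were higher there too. Wdr37 stood at 3.88 times the median of the other tumours, Gtpbp4, which works in ribosome assembly, at 2.76 and Larp4b at 2.14. Others were lower: Chrm3, Pfkp and Klf6 stood at 0.138, 0.558 and 0.672 of that median, each below all other tumours. The median log2 ratio over 468 genes of chromosome 13 was -0.21, against -0.07 over all genes compared. Of 28 neighbours, 12 were above all other tumours. They were picked by a mean that includes Tumor_16839. No share over all genes stands beside this count, so the count alone does not show an excess. Against WT mice at 150 dpi (41.7 to 97.5 CPM) the gene was not called (log2 fold change -0.06).

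**Figure D2:**
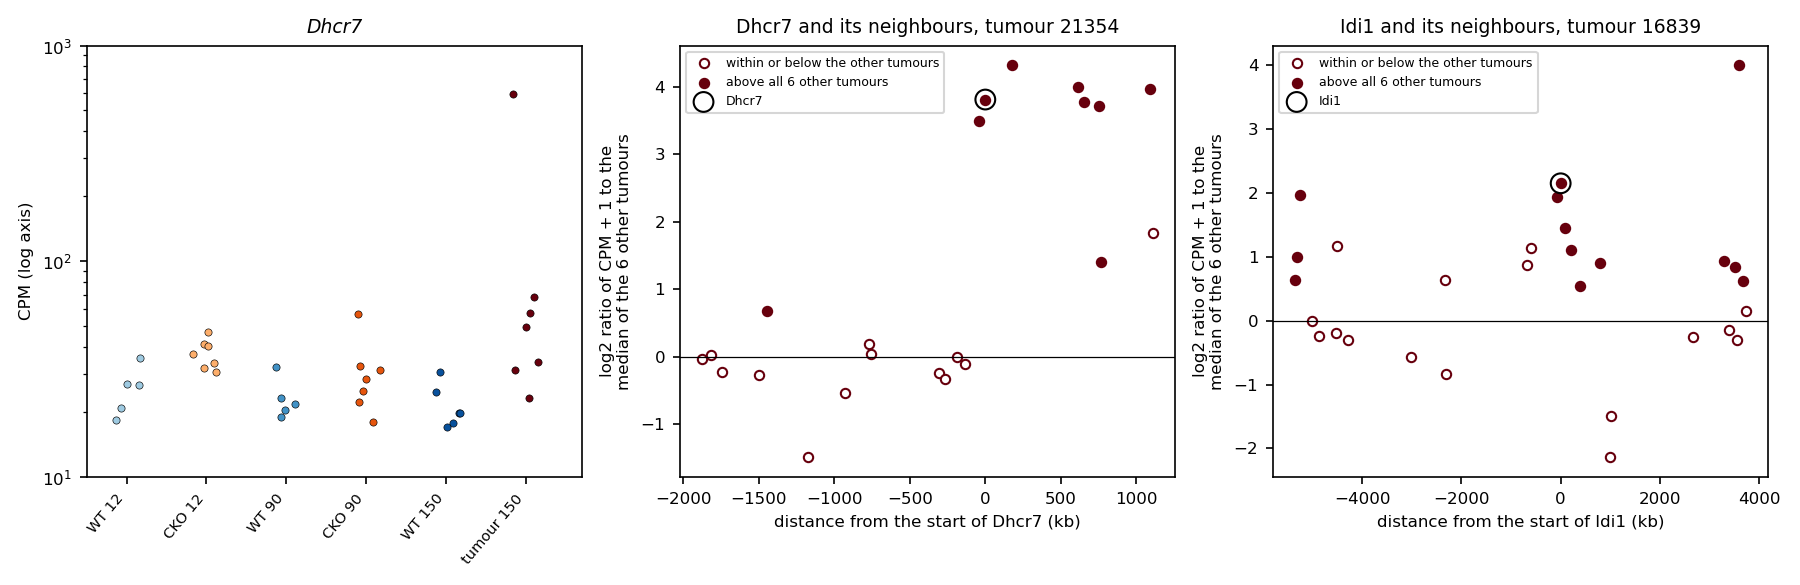
Left, Dhcr7 CPM in each animal by group on a log axis; middle and right, level of each neighbour gene in Tumor_21354 or Tumor_16839 relative to the median of the other 6 tumours, against its distance from Dhcr7 or Idi1, with filled points above all other tumours. Dhcr7 at 598 CPM stands alone in the left panel, and the filled points around it form a run from Mrgpre to Oraov1, with Ctsd apart from it.

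Of the 4 sterol sensing genes, Srebf1 was called higher in both comparisons and Srebf2 lower against CKO mice, while the call of Insig1 depended on the setting. Srebf1 (chr11:60199089-60222581, minus strand, GRCm38) read 46.2, 78.8, 123, 134, 137, 145 and 216 CPM in the 7 tumours. In WT mice at 150 dpi it read 30.4 to 54.3 (median 39.7), in CKO mice at 90 dpi 30.5 to 44.2 (median 32.4), and no other group's mean passed 40 CPM. All 7 tumours lay above every CKO mouse and all but Tumor_16839 above every WT mouse. Its log2 fold change was 1.68 (SE 0.22, 3.21-fold, edgeR adjusted p = 8.81e-08) against WT and 1.86 (SE 0.21, 3.63-fold, adjusted p = 3.01e-09) against CKO mice. Srebf2 read 58.3 to 111 CPM in tumours (median 71.2), 70.3 to 109 in WT mice (median 98.9) and 83.2 to 205 in CKO mice (median 106), and the groups overlapped. It was not called against WT mice (log2 fold change -0.19, SE 0.17, adjusted p = 0.383), and it stood at -0.52 (SE 0.16, edgeR adjusted p = 0.00755) against CKO mice. The latter call was lost without CKO_20647 (-0.33, adjusted p = 0.064), with DESeq2 (-0.35, adjusted p = 0.0718), with DESeq2's size factors in edgeR (-0.34, adjusted p = 0.0832) and in 3 more settings. Scap was not called (-0.04 against WT mice). Insig1 varied more in tumours, from 33.8 to 121 CPM, than in CKO mice, at 41.8 to 60.5: 5 tumours lay above all CKO mice, 2 below, and none within. Its log2 fold change against CKO mice was 0.38 (SE 0.20, edgeR adjusted p = 0.113), which passed without Tumor_21349 (0.53, adjusted p = 0.0173) or Tumor_21354 (0.51, adjusted p = 0.0174), and also with DESeq2 (0.55, adjusted p = 0.0161), with its size factors in edgeR (0.56, adjusted p = 0.0204) and in 3 more settings. Against WT mice it was 0.16 (SE 0.21, adjusted p = 0.559).

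The transport genes moved in opposite directions. Abca1, which exports cholesterol to apolipoproteins, read 235, 251, 296, 382, 420, 433 and 631 CPM in tumours, 153 to 292 in WT mice at 150 dpi (median 203) and 149 to 194 in CKO mice (median 176). No tumour overlapped the CKO mice, and the 2 lowest overlapped the WT mice. It rose by 0.78 on the log2 scale against WT (SE 0.18, edgeR adjusted p = 0.00048) and by 1.08 against CKO mice (SE 0.17, adjusted p = 2.65e-06). Stard4, which carries cholesterol through the cytosol, read 4.95, 10.2, 13.6, 13.9, 14.0, 15.5 and 23.6 CPM in tumours, 20.6 to 50.3 in WT mice (median 36.0) and 24.8 to 71.9 in CKO mice (median 32.6). All 7 tumours were below every CKO mouse and 6 were below every other animal of the study. On the log2 scale the change was -1.41 (SE 0.25, edgeR adjusted p = 1.43e-05) against WT and -1.40 (SE 0.24, adjusted p = 7.44e-06) against CKO mice. Abcg1, which exports cholesterol to lipoprotein particles and with Abca1 is a known target of LXR, read 45.8 to 213 CPM in tumours and was not called (-0.11 against WT mice, SE 0.24, adjusted p = 0.739).

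Fatty acid synthesis held the most calls: 4 of 6 genes rose (24.3% of all genes against WT and 26.4% against CKO mice) and 1 fell (21.9% and 22.6%) in either comparison, with a median log2 fold change of 0.97 against WT and 0.65 against CKO mice. Acaca, the acetyl-CoA carboxylase that makes malonyl-CoA, read 77.9, 95.5, 97.2, 99.5, 115, 116 and 148 CPM in tumours, 33.9 to 57.4 in WT mice at 150 dpi (median 37.7) and 45.8 to 82.5 in CKO mice (median 57.8). No tumour overlapped the WT mice, and 1 lay inside the CKO range. The log2 fold change was 1.36 (SE 0.21, edgeR adjusted p = 2.12e-06) against WT and 0.82 (SE 0.20, adjusted p = 0.000684) against CKO mice. Fasn read 145, 169, 179, 242, 281, 392 and 467 CPM in tumours, 112 to 221 in WT mice (median 147) and 138 to 247 in CKO mice (median 177), so that the lower tumours lay inside both ranges. It rose by 0.76 against WT mice (SE 0.21, edgeR adjusted p = 0.00285) and by 0.52 against CKO mice (SE 0.20, adjusted p = 0.028). The latter call was lost when any of CKO_20642, CKO_22146, CKO_22149, Tumor_16840 or Tumor_21349 was left out (0.35 to 0.49, adjusted p = 0.0511 to 0.129).

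The elongases rose with them. Elovl6, which extends palmitate to stearate, read 88.7, 112, 116, 124, 136, 142 and 149 CPM in tumours, 39.7 to 65.3 in WT mice (median 54.7) and 43.6 to 107 in CKO mice (median 71.6). Tumours and WT mice did not overlap, and 1 tumour lay below the highest CKO mouse. On the log2 scale the change was 1.18 (SE 0.15, 2.27-fold, edgeR adjusted p = 5.72e-08) against WT and 0.78 (SE 0.14, adjusted p = 2.67e-05) against CKO mice. Elovl1, which makes very long saturated chains such as those of myelin lipids, read 7.95, 19.4, 19.8, 20.4, 27.5, 37.7 and 44.9 CPM in tumours, 4.06 to 10.3 in WT mice (median 7.45) and 7.94 to 17.8 in CKO mice (median 10.3). All tumours but Tumor_16839 lay above both groups. It rose by 1.77 (SE 0.30, edgeR adjusted p = 8.12e-06) and 1.16 (SE 0.27, adjusted p = 0.000574). Its exons overlap by 53 bases those of Cdc20, a mitotic gene at 25.5 CPM in tumours and 0.701 in WT mice. Scd2 went the other way: 696, 726, 786, 1118, 1195, 1366 and 1590 CPM in tumours, 1236 to 1880 in WT mice (median 1699) and 1549 to 2344 in CKO mice (median 1930). With 5 tumours below every WT mouse, it fell by 0.61 on the log2 scale against WT (SE 0.16, edgeR adjusted p = 0.00228) and by 0.84 against CKO mice (SE 0.16, adjusted p = 3.76e-05). Scd1, the related desaturase, read 63.6 to 255 CPM in tumours and was not called (0.17 against WT mice, SE 0.29, adjusted p = 0.671). Scd1 and Scd2 are 95.5% identical over 623 bases, so that reads there can be assigned to either.

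Few of these genes separated the groups fully. Against WT mice at 150 dpi, Acaca and Elovl6 lay wholly higher (6.72% of all genes did) and none of the 31 wholly lower (8.96% of all genes). Against CKO mice at 90 dpi, Srebf1 and Abca1 lay wholly higher (6.77% of all genes) and Tm7sf2 and Stard4 wholly lower (10.5%). Across the 31 genes, the SD of log2 CPM over animals had a median of 0.601 in tumours and 0.368 in WT mice at 150 dpi, and it was larger in tumours for 21 of 31. No value over all genes stands beside these, so they cannot be read as a trait of the 31. The highest tumour was 25.8 times the lowest for Dhcr7 and 10.6 times for Acat2, but 1.47 times for Sc5d and 1.68 times for Elovl6.

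**Figure D3:**
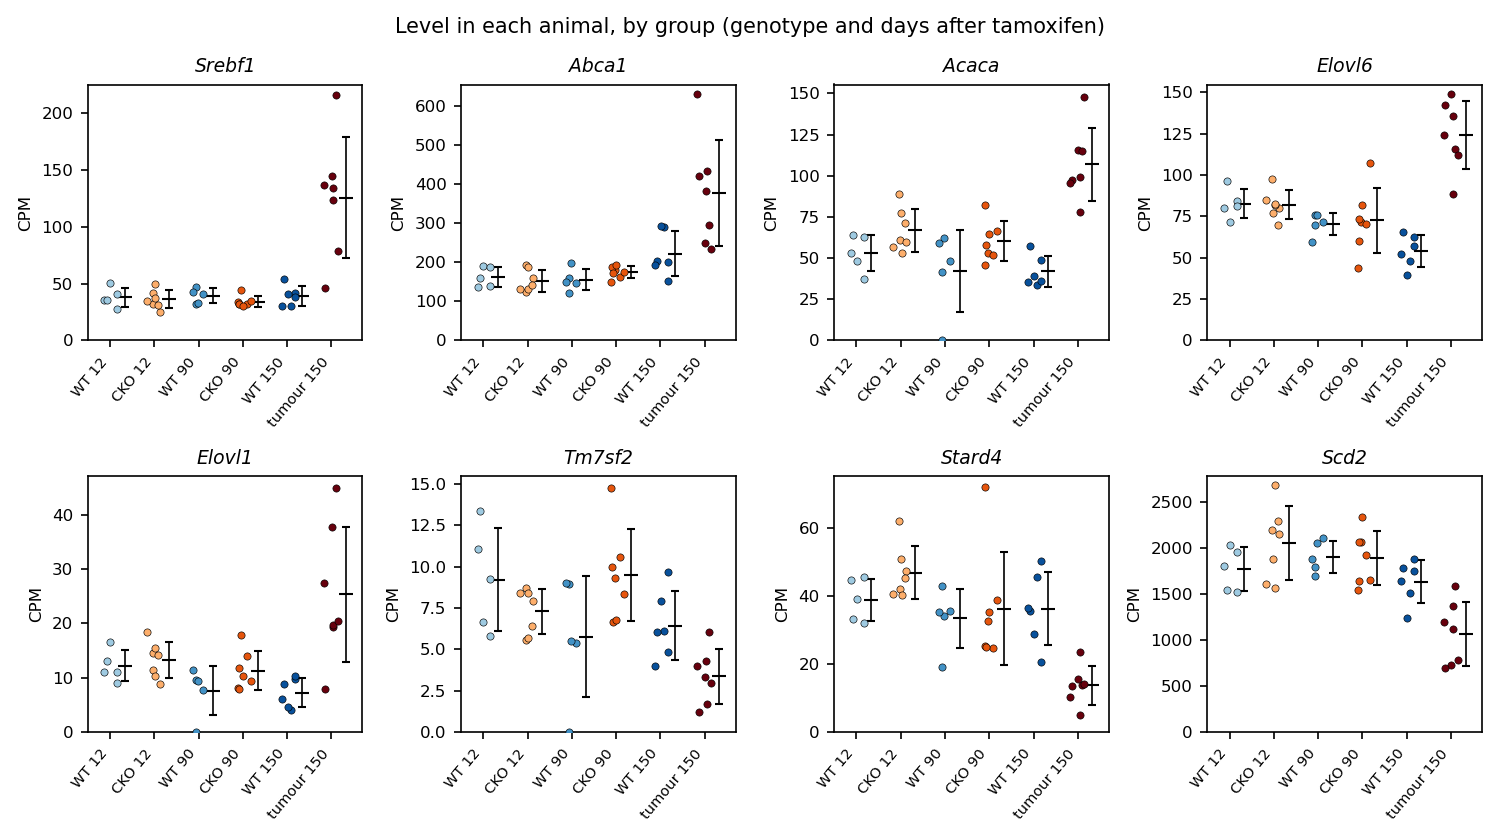
CPM of 8 genes in each of the 37 animals (points) by group, with the mean and SD of the group beside the points; the numbers are days after tamoxifen. The 5 groups without tumours sit at like levels, while Srebf1, Abca1, Acaca, Elovl6 and Elovl1 are higher and Tm7sf2, Stard4 and Scd2 lower in most tumours.

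The tumour effect at 150 dpi differed from the CKO effect at 90 dpi for 8 of the 31 genes (30% of all genes). Of these, 6 changed upward (14.2% of all genes) and 2 downward (15.8%). The comparison takes the tumour effect at 150 dpi minus the CKO effect at 90 dpi, each against WT mice of its own time, and uses the same tumours and WT mice as above. Srebf1 changed by 1.82 on the log2 scale (SE 0.32, edgeR adjusted p = 2.61e-05), Elovl6 by 1.13 (SE 0.22, adjusted p = 0.000125), Elovl1 by 1.47 (SE 0.43, adjusted p = 0.0076) and Acaca by 1.05 (SE 0.30, adjusted p = 0.00742). Stard4 changed by -1.44 (SE 0.37, adjusted p = 0.00263) and Tm7sf2 by -1.35 (SE 0.44, adjusted p = 0.0172), the latter lost without WT_22254 (-1.17, adjusted p = 0.0596). Dhcr7 changed by 2.07 (SE 0.68, adjusted p = 0.0188), lost without Tumor_21354 (0.74, adjusted p = 0.118). Sqle changed by 0.82 (SE 0.30, adjusted p = 0.0368), lost without any of 8 animals (0.73 to 0.85, adjusted p = 0.0502 to 0.07): WT_21167, WT_22185, WT_21591, WT_21592, CKO_22146, CKO_22149, CKO_22152 or Tumor_16840. The lower Sqle level of WT mice at 150 than at 90 dpi, given above, enters this value. Abca1 stood at 0.60 (adjusted p = 0.0778), Scd2 at -0.60 (adjusted p = 0.0553) and Cyp51 at 0.59 (adjusted p = 0.113). These passed without any 1 of 15 animals for Abca1 (0.66 to 0.75), of 4 for Scd2 (CKO_20647, Tumor_16844, Tumor_21256 or WT_21592, -0.67 to -0.65) and of 2 for Cyp51 (Tumor_21354 or WT_22255, 0.71 and 0.76). Abca1 and Cyp51 also passed with DESeq2 (both 0.76, adjusted p = 0.0165 and 0.0246), with its size factors in edgeR (0.76 and 0.75, adjusted p = 0.0214 and 0.0349) and with a mean of at least 10 CPM (0.73 and 0.70), and Cyp51 without 3 animals together (0.81).

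Among related genes outside the 31, counts are again to be read beside the 24.3% of all genes called higher and 21.9% called lower against WT mice at 150 dpi, and the 26.4% and 22.6% against CKO mice. Of 18 other sterol genes, 6 rose and 3 fell against WT mice. Mylip, which marks lipoprotein receptors for degradation and is induced by LXR, averaged 18.7 CPM in tumours and 6.77 in WT mice (log2 fold change 1.52), and Scarb1, a lipoprotein receptor, 32.1 and 12.8 (1.33). Cyp46a1, the neuronal enzyme that turns cholesterol into 24-hydroxycholesterol, averaged 3.18 and 27.3 CPM (-3.06), beside the neuron marker sums of 264 to 1498 and 7950 to 11379 CPM. Abcg4, a sterol exporter, averaged 10.5 and 27.8 (-1.41). Of 23 other fatty acid genes, 11 rose and 4 fell, with the largest rises in Fabp7, the brain fatty acid binding protein, at 1685 and 199 CPM (3.08), and Acacb, the mitochondrial carboxylase, at 12.4 and 2.78 (2.12). The largest falls were Hacd2 (-1.12) and Elovl4 (-0.90). Of 9 sphingolipid genes of myelin, 4 rose and 1 fell: Gal3st1, the sulfatide enzyme, by 1.29, and Cers2, the ceramide synthase for very long chains, at 113 and 54.8 CPM (1.04), against Ugcg, the glucosylceramide synthase, at 138 and 249.6 (-0.85). Against CKO mice at 90 dpi, 8 rose and 3 fell of the 18, 8 and 6 of the 23, and 3 and 1 of the 9. There Mylip stood at 1.73, Cyp46a1 at -3.47, Abcg4 at -1.61, Fabp7 at 3.09, Acacb at 2.79, Hacd2 at -0.97, Elovl4 at -0.77, Gal3st1 at 1.08, Cers2 at 0.68 and Ugcg at -1.04. Ch25h, the cholesterol 25-hydroxylase, averaged 2.21 CPM in tumours (0.574 to 5.05) and 0.191 in CKO mice, 2 of which were at 0. In WT mice at 150 dpi it averaged 1.21 CPM (0 to 2.32), so those ranges overlapped at a low level. From the CKO effect at 90 dpi to the tumour effect at 150 dpi, a change upward and downward was called for 5 and 3 of the 18. It was called for 7 and 2 of the 23, and 1 and 1 of the 9, beside 14.2% and 15.8% of all genes.

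Small captures of CKO cells showed how often single genes were seen in about 10 cells; their amplification differs from that of the bulk libraries, so levels are not set against each other. Scd2 had counts in 100% of the libraries of both kinds at both times, and Fasn in 94.6% of 10-cell libraries at 12 dpi and 100% elsewhere. Hmgcs1 was seen in 87.5 to 98.2% of libraries, Srebf1 in 39.3 to 62.5%, Stard4 in 35 to 55%, Hsd17b7 in 16.1 to 37.5% and Idi1 in 7.14 to 19.6%. The desaturase and synthase of fatty acids were thus near universal, and several sterol enzymes were missed in most libraries at depths of 1.64 to 6.49 M counts (M, 1000000).

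Libraries of one capture set were summed and compared between 90 and 12 dpi, with 4 sets at each time and kind. In the 10-cell sets edgeR called 0 of the 31 genes (0% of 14500 genes), with 0 at an unadjusted p under 0.05, and DESeq2 called 0. In the pool-and-split sets edgeR called 0 of 30 (0% of 13408 genes; Idi1 was not tested), with 0 at an unadjusted p under 0.05, and DESeq2 called 0. The smallest edgeR adjusted p among them was 0.727 and 0.707. Fasn averaged 389 CPM at 90 dpi and 310 at 12 dpi in the 10-cell sets, and Scd2 1436 and 1665. Sqle averaged 152 and 361, where 1 set at 12 dpi read 1097.

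A gene that differs from cell to cell should vary more among 10-cell libraries than among pool-and-split libraries, which share one pool of cells. Absolute deviations of log2(CPM + 1) were tested with limma. Single libraries were the units, so its p-values do not measure the spread between animals or capture sets. At 12 dpi 0 of 23 genes tested differed in spread (0.0252% of 7926 genes), with 1 at an unadjusted p under 0.05. That was Fasn, with an SD of 2.57 in 10-cell and 1.42 in pool-and-split libraries (limma adjusted p = 0.512). At 90 dpi 0 of 27 differed (0.639% of 9704 genes), with 2 at an unadjusted p under 0.05. Hmgcs1 had an SD of 1.85 in 10-cell and 2.77 in pool-and-split libraries (limma adjusted p = 0.0923), smaller in the 10-cell libraries, and Insig1 1.62 and 0.996 (adjusted p = 0.166). The SD was larger in the 10-cell libraries for 16 of 23 genes at 12 dpi and 9 of 27 at 90 dpi. For these genes the median log2 ratio of 10-cell to pool-and-split SD was 0.159 at 12 dpi and -0.15 at 90 dpi. Over all genes tested it was 0.104 and -0.0975, so the shift is not particular to these genes.

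**Figure D4:**
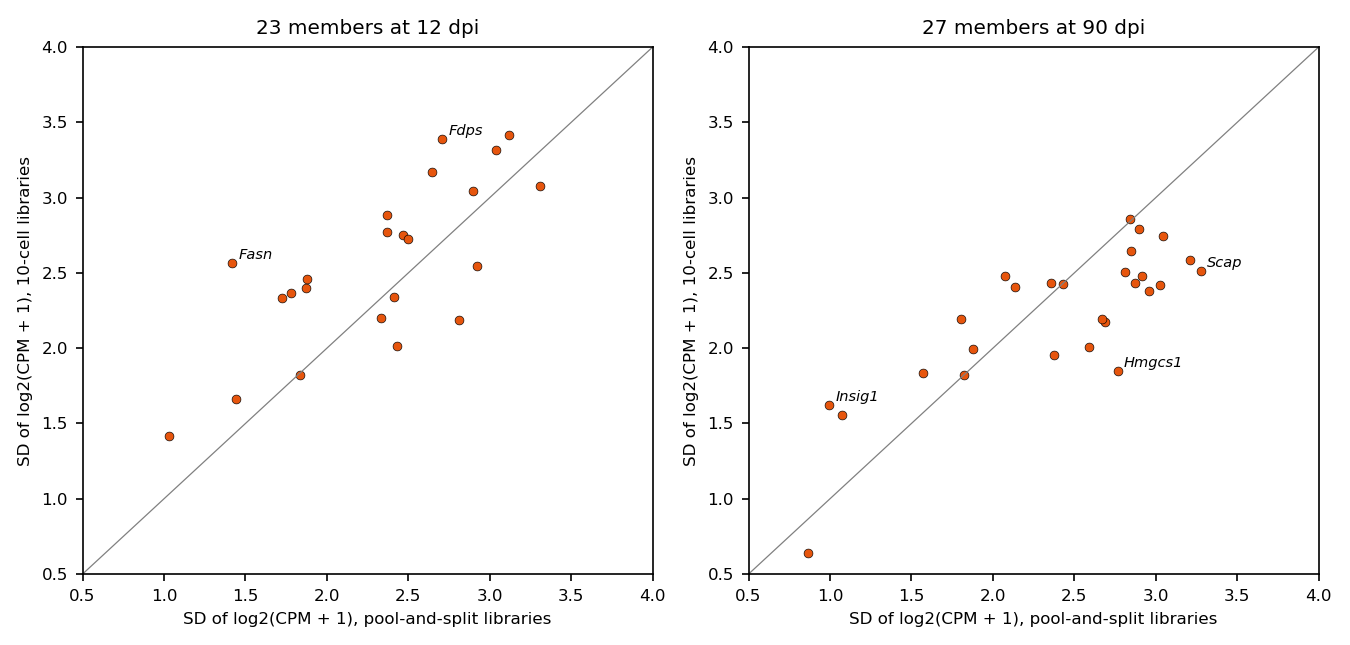
SD of log2(CPM + 1) over 10-cell libraries (y axis) and over pool-and-split libraries (x axis) for each gene tested, at 12 dpi (left) and 90 dpi (right); the line marks equal SD. Fasn lies well above the line at 12 dpi and Hmgcs1 below it at 90 dpi, and no gene passed the test.

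Between animals, 6 pairs of these genes were compared after centring on group means, separately in the 7 tumours and the other 30 animals, 12 relations in all. Fasn and Scd2 went together in the 30 animals, with Pearson's r = 0.605 (permutation p = 0.00047, adjusted 0.00564) and Spearman's rho = 0.608 (permutation p = 0.00042, adjusted 0.00504), and r = 0.558 without the 2 animals farthest in Fasn. Scd1 and Scd2 gave r = 0.501 (adjusted permutation p = 0.0214) and rho = 0.478 (adjusted permutation p = 0.0517), but share near-identical sequence. Hmgcs1 with Sqle gave r = 0.02, Hmgcs1 with Insig1 0.12, Srebf2 with Hmgcs1 0.04 and Abca1 with Abcg1 0.37, none passing the adjusted permutation test. None of the 6 relations passed in the 7 tumours, by exact permutation, where Fasn with Scd2 gave r = -0.155; the difference between tumours and the other animals was not tested.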

How the data were processed

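Gene-level expected counts from RSEM with Bowtie2 on GRCm38, per the submitters' processing notes, were taken as the authors deposited them; versions, annotation and counting strand are not given in the sources used here. Linear amplification made the bulk libraries and PCR the small ones, per the labels' protocols. Expected counts (13.6% were not whole) were rounded, the 2 libraries of 11 animals were summed, and 92 spike-ins were left out. edgeR 4.0.16 (R 4.3.3) fitted 37 animals together with sex as a covariate: TMM scaling, filterByExpr (minimum count 10, minimum total 15), quasi-likelihood test, Benjamini-Hochberg adjustment over all 16349 genes, log2 CPM with a prior count of 2. Spread was tested with limma 3.58.1, and DESeq2 1.42.0 was an alternative. Median depth was 4.24 M (M, 1000000) counts per 10-cell and 3.80 M per pool-and-split library; depth limits the precision of low genes. All 31 genes may be named, the related lists by their 2 largest called rises and falls in each tumour comparison. The genes and lists were chosen with earlier results of these data known. Scripts were tested on simulated data.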

Additional observations from a re-analysis of the deposited data

Results flagged for a closer look

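In 21 of 186 combinations of gene and group (11.3%), the highest or lowest animal stood apart from its group by Dixon's test. Its rate of about 1 in 20 by chance holds for independent values with a normal distribution. The test was run on unlogged CPM, and the genes of one animal are not independent. The share therefore does not show an excess over chance. CKO_20647 at 90 dpi was the highest for Fdft1 (105 CPM), Sqle (121), Dhcr7 (56.7), Srebf2 (205), Stard4 (71.9) and Scd1 (194), and it also had the highest neuron marker sum of its group, 16013 CPM. WT_21167 at 90 dpi, with 93694 counts in all, stood apart for Mvd (19.0 CPM), Fdft1 (75.8), Scap (75.8), Abcg1 (133) and, as the lowest, Sc5d (9.48). Tumours stood apart for Idi1 (176, Tumor_16839), Dhcr7 (598, Tumor_21354), Scd1 (255, Tumor_16844) and, as the lowest, Lss (25.0, Tumor_16713). The other 6 were Scd1 at 468 CPM in CKO_22364 at 12 dpi, Cyp51 at 110.5 in WT_22180, Nsdhl at 22.2 in WT_22254, Srebf1 at 44.2 in CKO_20642, Fdps at 32.1 in WT_22064 and Abcg1 at 179.7 in WT_21592.

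The tumour effect at 150 dpi differed from the CKO effect at 90 dpi, by edgeR's interaction term, for 8 of the 31 genes (30% of all genes). They were Sqle (0.82 on the log2 scale), Tm7sf2 (-1.35), Dhcr7 (2.07), Srebf1 (1.82), Stard4 (-1.44), Acaca (1.05), Elovl1 (1.47) and Elovl6 (1.13). The calls of Sqle, Tm7sf2 and Dhcr7 were lost when single animals were left out, as given above. Genotype, tumour and time cannot be told apart in this comparison.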

How the results depend on the processing

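No result reversed. Leaving out 1 animal at a time, the genes called were 12 to 14 in tumours against WT mice (13 in all), 13 to 17 against CKO mice (14) and 7 to 10 for the change from 90 to 150 dpi (8); the other comparisons stayed at 0. The change was called for 5 genes with the compared groups fitted alone; its downward calls (2) were 1 with that fit, 1 with a mean of at least 10 CPM and 1 without WT_22254. Downward calls against WT mice (3) were 5 with the deepest library per animal and 1 with the groups alone, where Acat2 (2.01), Tm7sf2 (-0.81), Fasn (0.76) and Scd2 (-0.57) were not called. Against CKO mice the groups alone gave 11 calls, and those of Dhcr7 (1.57), Fasn (0.52) and Srebf2 (-0.54) were lost. Without WT_21167, CKO_20647 and Tumor_21354 together, chosen after seeing the data, 13, 15 and 9 were called.

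DESeq2's size factors moved the median of all genes from 0.06 to 0.22, from 0.12 to 0.29 and from 0.04 to 0.20 in these comparisons, and upward calls among all calls from 52.6% to 62.1%, 53.8% to 63.5% and 47.2% to 57.3%. Among the 31, upward and downward calls went from 7 and 7 to 9 and 6 against CKO mice and from 6 and 2 to 8 and 2 for the change, and stayed at 10 and 3 against WT mice; their medians became 0.16, 0.25 and 0.29. Differences in spread over all genes at 12 dpi numbered 11 with a pseudocount of 0.1 and 0 with 5, against 2. A replicate block called 0 of the genes in either kind of set; same-numbered libraries correlated at -0.04 to 0.02, so the numbers share only a name. Low genes such as Acat2, with WT animals at 0, are the least precise.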
